A study of Drosophila melanogaster with 3 samples.

Results

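The sites described here are places between genes, away from promoters, at which GFP-tagged CG16815 was found in chromatin of Drosophila melanogaster embryos. They are the passing sites (regions kept in the authors' final list for the dm6 genome build) whose summit, the point of highest signal, lies in no annotated gene and more than 500 bp from any annotated transcription start site (TSS). There were 641 such intergenic sites among 3922 passing sites (16.3%, exact binomial 95% interval 15.2 to 17.5). Of the other passing sites, 1828 were promoter sites within 500 bp of a TSS and 1453 were genic sites, inside a gene but over 500 bp from any TSS. The study measured chromatin immunoprecipitation followed by sequencing (ChIP-seq) in 1 group of 3 biological replicates. Each replicate was whole embryos of both sexes, aged 0 to 10 h, from a transgenic line that stably expresses CG16815 with GFP at its C terminus. The antibody was against GFP, so the tagged transgene product was precipitated, and chromatin was sonicated to a size range of 200 to 800. No untagged or untreated group and no control library was analysed here.

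In ChIP-seq, DNA fragments crosslinked to a protein are enriched with an antibody and sequenced, and a stretch with more fragments than its surroundings is called as a region. The fly genome is compact, and the long gaps between its genes often lie beside regulators of development, where enhancers (stretches of DNA that act on a promoter at a distance) direct expression in bands, layers or lineages of the embryo. Many proteins are found at enhancers and promoters alike, either through their own contact with DNA or through partners, and ChIP-seq does not tell these apart.

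The DNA at the summits is shown for 8 of the strongest sites that were found in all 3 replicates, since the values below begin with them. Each line gives the summit base and 50 bp on either side, plus strand, 5′ to 3′, from the RefSeq assembly of the dm6 build, and is named by the genes on its left and right. Capitals mark the word ACTAA on either strand (TTAGT on the other), which is the core of several 6-letter words found more often at summits than beside them and was chosen after those words were seen. Of the 8 sequences, 3 hold the word.
COX7AL2/CG31668, chr2L:2202387-2202487: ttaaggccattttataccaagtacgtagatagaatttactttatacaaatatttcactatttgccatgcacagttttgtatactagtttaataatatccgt
RasGAP1/CG10809, chr3L:9855867-9855967: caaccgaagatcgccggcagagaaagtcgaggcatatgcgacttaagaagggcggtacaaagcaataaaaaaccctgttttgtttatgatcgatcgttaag
lncRNA:CR44603/lncRNA:CR45695, chr2L:1638755-1638855: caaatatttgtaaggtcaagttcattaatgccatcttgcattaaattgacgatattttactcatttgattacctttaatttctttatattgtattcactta
CG43131/RabGGTa, chr3R:5113233-5113333: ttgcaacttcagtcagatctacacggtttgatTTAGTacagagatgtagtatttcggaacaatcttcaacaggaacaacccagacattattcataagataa
C15/sp3, chr3R:21520329-21520429: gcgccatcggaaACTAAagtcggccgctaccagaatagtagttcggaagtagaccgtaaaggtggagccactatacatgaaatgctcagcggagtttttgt
ph-d/ph-p, chrX:2124027-2124127: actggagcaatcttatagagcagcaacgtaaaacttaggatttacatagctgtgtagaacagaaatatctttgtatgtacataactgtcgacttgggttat
slp1/slp2, chr2L:3832475-3832575: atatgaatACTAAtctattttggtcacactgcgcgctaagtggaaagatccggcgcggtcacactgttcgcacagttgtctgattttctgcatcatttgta
lncRNA:CR45641/lncRNA:CR45643, chr3R:16222438-16222538: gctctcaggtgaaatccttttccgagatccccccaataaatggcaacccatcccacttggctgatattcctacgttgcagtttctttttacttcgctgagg

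The 8 windows differed in base composition, from 51.5% A+T beside C15 to 75.2% A+T between lncRNA:CR44603 and lncRNA:CR45695. The window between slp1 and slp2 was the 1 intergenic site of 641 with a match to GGTCACAC, the core of the motif of the promoter-binding factor M1BP. The windows between COX7AL2 and CG31668 and between lncRNA:CR44603 and lncRNA:CR45695 each hold TATAAA, the TATA box, on the other strand (TTTATA as printed).

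The strongest intergenic sites lay beside genes of varied roles. Signal is the authors' value per region in the list made from the 3 replicates pooled, and its scale is not stated, so it is used to order sites within a list. Ranks are positions by signal in each replicate's own list, in which rank 1 is strongest. These lists hold 30000, 21989 and 27358 regions for replicates 1, 2 and 3, so a low position is not the same depth in each list. The highest signal, 1815.5, was at chr2R:13035155-13035518, between Su(z)2 and CG13323, 27423 bp from Su(z)2 and 9361 bp from CG13323. This site ranked 24 in replicate 1, 18 in replicate 2 and 21 in replicate 3, so the 3 replicates placed it alike. Su(z)2 and its neighbour Psc encode RING-finger proteins of the Polycomb group, which keeps developmental genes silent.

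A site at chr2R:12958014-12958453 between CG13321, at 2516 bp, and Psc, at 7769 bp, had a signal of 1395.6 and ranks of 103, 81 and 9. Another in the same gap, at chr2R:12959365-12959628, 3755 bp from CG13321 and 6530 bp from Psc, had a signal of 807.6 and ranks of 353, 197 and 137. Both were ranked higher in replicate 3 than in the others. On the X, the site at chrX:2123881-2124386 between ph-d and ph-p, the paired Polyhomeotic genes of the same Polycomb complex, had a signal of 991.2 and ranks of 113, 97 and 207. Of the 15 strongest sites found in all 3 replicates, 4 thus lay beside Psc, Su(z)2, ph-d or ph-p, and 7 intergenic sites in all lay beside these genes. A further 10 pooled intergenic regions beside them did not pass, so 41.2% of 17 passed. This grouping was made after the values were seen. Of the 4 among the 15 strongest, those beside Su(z)2 and Psc lay nearer to the gene on their other side.

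The second strongest site, at chr2R:22802751-22803141, had a signal of 1605.7 and lay in a gap of 1340 bp between the 3′ ends of blw, a subunit of the mitochondrial ATP synthase, and CycB, a mitotic cyclin. It ranked 44, 45 and 13 in replicates 1, 2 and 3. The site between COX7AL2 and CG31668 had a signal of 1169.8 and ranks of 135, 91 and 27. At 632 bp upstream of RasGAP1, which switches off Ras signalling, a site had a signal of 1153.9 and ranks of 116, 108 and 22. These sites were well inside the best-ranked part of every replicate, and highest in replicate 3.

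Transcription factor genes flanked others of the strongest. The site between lncRNA:CR44603 and lncRNA:CR45695, at chr2L:1638533-1639021, had a signal of 1137.3. Its nearest protein-coding genes were RFeSP, 24645 bp away, and chinmo, 12453 bp away, a BTB zinc-finger factor of neuronal temporal identity. It ranked 52 and 57 in replicates 1 and 2 but 951 in replicate 3. The site 549 bp upstream of sp3 and 7565 bp beyond C15, a homeobox gene, had a signal of 1043.8 and ranks of 187, 119 and 45. The site between slp1 and slp2, forkhead-family segmentation factors, had a signal of 946.0 and ranks of 163, 150 and 76. The site at chr3R:16222316-16222672, whose nearest coding gene at 3163 bp is tara, had a signal of 937.2, a rank of 102 in replicate 2, the rank just above that in replicate 1, and 568 in replicate 3. The chinmo and tara sites stood low in replicate 3 alone.

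The remaining strongest sites lay beside genes of other roles. The site 4105 bp upstream of CG43131, with RabGGTa (a subunit of the enzyme that attaches lipid to Rab proteins) on its other side, had a signal of 1053.5 and ranks of 180, 136 and 24. Far from any start, 12814 bp, the site between CheA75a and CG5103 had a signal of 847.1 and ranks of 252, 211 and 82. The site between CG3149 and lncRNA:CR42794, with the metalloprotease gene AdamTS-B as the nearest coding gene on that side, had a signal of 843.1 and ranks of 269, 186 and 112. The site between lncRNA:CR45937 and lncRNA:CR45936 had a signal of 783.1 and ranks of 175, 315 and 97. Across the 15, 11 were ranked better in replicate 3 than in the mean of replicates 1 and 2.

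**Figure D1:**
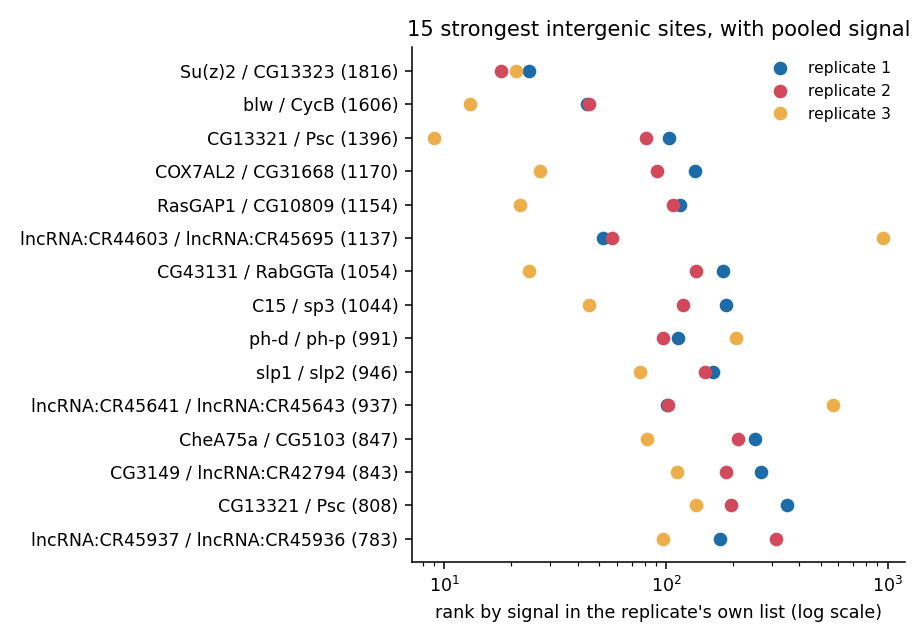
Rank of the 15 strongest intergenic sites found in all 3 replicates, 1 point per replicate, on a logarithmic axis; labels give the flanking genes and the pooled signal. Most points of replicate 3 lie to the left (stronger), except at the sites near chinmo (rank 951), tara (rank 568) and ph-d (rank 207), and at Su(z)2, where rank 21 lies between the others.

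Genes that lay out the body plan flanked a larger share of the sites than of the intergenic regions that did not pass. A site was counted for a gene list when the nearest gene on either side, or the nearest coding gene, belonged to the list. The listed gene was thus not always the gene nearest to the site. These counts were not tested, since sites and lists were chosen with earlier results of these data known. Genes of the segmentation list flanked 46 of the 641 intergenic sites (7.18%) and 148 of the 3749 pooled intergenic regions that did not pass (3.95%). Put the other way, 23.7% of pooled intergenic regions beside a gene of this list passed, where 14.6% of all pooled intergenic regions outside promoters did. Of 38 genes of the list matched, 19 had at least 1 site. These include Doc1 and Doc2, which are genes of the dorsal embryo rather than of segmentation. The shares were not counted without them. With hry, the annotation's name for the listed gene h, added after the data were seen, the counts were 49 and 172, and 22.2% passed.

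In the segmentation list, slp1 and slp2 had the strongest site, given above. The next in the list was at chr3L:9011900-9012105, 751 bp from Doc2, a T-box gene of the dorsal embryo and amnioserosa. Its signal was 483.9 and its ranks 816, 734 and 254. In the gap between Wnt4 and wg, genes of secreted Wnt ligands, 4 sites had signals from 178.1 to 322.6, and all 4 were found in all 3 replicates. The gap between Syx7 and croc, a forkhead gene of the head, also held 4 sites, with signals from 125.7 to 307.9. Of 42 sites beside segmentation genes found in all 3 replicates, 35 (83.3%) ranked better in replicate 3 than in the mean of the others. Of all 565 intergenic sites found in all 3, 358 did (63.4%). This was not particular to the segmentation list. The share was 85.7% beside Hox genes (6 of 7) and 83.3% beside ecdysone-response and nuclear receptor genes (5 of 6). It was 73.3% beside axon guidance and adhesion, 71.4% beside dorsoventral and mesoderm, 63.6% beside neural and 54.2% beside tRNA genes. The signalling list also lay above 63.4%. Sites sharing their gap reached 68.7%, and sites alone in it 56.6%. These differences were not tested.

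Hox genes and cofactors flanked 8 sites, of which the strongest lay 8307 bp from abd-A, with a signal of 495.5 and ranks of 850, 392 and 662. A site 13274 bp from hth, a Hox cofactor, was the next, with a signal of 209.5 and ranks of 2971, 2604 and 1376. The share of pooled regions beside Hox genes that passed was 19.0% (8 of 42). For genes of dorsoventral patterning and mesoderm it was 17.9%, with 22 sites. The strongest of these lay 1264 bp from bin, a forkhead gene of the visceral mesoderm, with a signal of 650.0 and ranks of 419, 236 and 452, followed by a site 9265 bp from mid, a T-box gene, with a signal of 569.3 and ranks of 343, 576 and 245.

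Neural genes flanked 27 sites, and 17.6% of pooled regions beside them passed. The site between Sox21a and Sox21b had a signal of 457.9 and ranks of 469, 582 and 1044, and the site 9020 bp from tup, a LIM-homeodomain gene, had a signal of 435.9 and ranks of 895, 947 and 297. Signalling ligands and receptors flanked 12 sites, and 17.4% of pooled regions beside them passed. With Delta, listed as Dl, they flanked 13, and 17.3% passed. The strongest lay 1739 bp from the Wnt receptor gene fz, with a signal of 519.0 and ranks of 619, 354 and 1048. The site 5294 bp from ptc, the Hedgehog receptor, had a signal of 341.8 and ranks of 823, 1178 and 1204.

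Other lists gave shares at or under that of the territory, or rested on few sites. Axon guidance and adhesion genes flanked 30 sites, but 11.5% of pooled regions beside them passed. The strongest lay 9957 bp from dpr17, an immunoglobulin-domain surface protein, with a signal of 453.5, and 6525 bp from robo2, a receptor for the midline repellent Slit, with a signal of 401.4. Nearer to these sites were CG4702, at 206 bp, and CG43401, at 1496 bp. Ecdysone-response and nuclear receptor genes flanked 8 sites (11.9% of pooled regions beside them passed), the strongest beside Hr51 with a signal of 233.8 and beside Eip75B with 225.9. The list of GATA factors had 1 site, 1609 bp from srp, with a signal of 137.9 (9.09% of pooled regions beside them passed). Cytoplasmic ribosomal protein genes had 1, 781 bp from RpLP0, with a signal of 170.4 (2.78% passed). The list of microRNA genes also had 1, 847 bp from mir-4981, with a signal of 633.5 (4.35% passed). Cell cycle genes had 2, the site beside CycB and one 597 bp from Cdk4 with a signal of 130.1, of 8 pooled regions beside them.

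Transfer RNA genes flanked 24 sites, 21.4% of the 112 pooled regions beside them. The strongest lay between tRNA:Ser-GCT-2-2, at 9013 bp, and foxo, at 3326 bp, with a signal of 667.5 and ranks of 154, 216 and 2001. The next lay 10895 bp from tRNA:Ile-TAT-1-2, with a signal of 475.1 and ranks of 266, 642 and 1182. Neither lay near its tRNA gene, and both stood lower in replicate 3. Of the 24 sites, 6 lay in 1 gap, between tRNA:Ile-TAT-1-2 and CG13898, which also held 9 regions that did not pass. The gap between tRNA:Ser-GCT-2-2 and foxo held 3 sites and 3 regions that did not pass. The share thus rests in part on a few gaps.

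**Figure D2:**
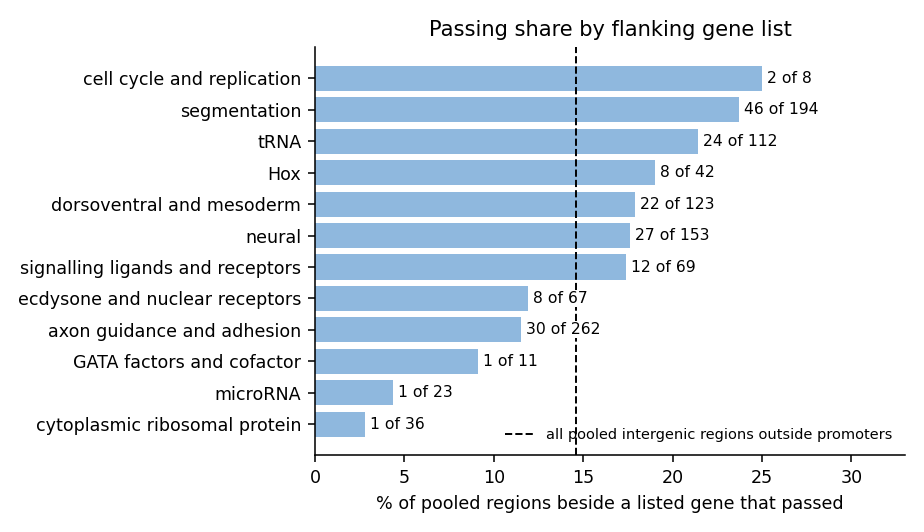
Share of pooled intergenic regions outside promoters that passed, for regions beside a gene of each list, with the number that passed of the number of regions at the bar's end; a region can count for more than 1 list. The dashed line is the share over all such regions (14.6%). The segmentation list (23.7%) and the list of tRNA genes (21.4%) are the highest among lists with over 20 sites.

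Some gaps between genes held several sites. The gap around a site had a median length of 11796 bp, against 13521 bp for regions that did not pass. Sharing of gaps was not counted for regions that did not pass. The 641 sites lay in 419 gaps, 130 of which held 2 or more, and these held 352 sites (54.9%). The gap between CG7320 and lncRNA:CR45935 held 7 sites within 26991 bp, with signals from 134.7 to 268.2, and 6 of them were found in all 3 replicates. The gap with the chinmo site held 6, with signals from 186.9 to 1137.3. A gap of 75047 bp between NijA, a gene of a Ninjurin membrane protein, and CG43245 held 6, with signals from 166.4 to 750.2. The gap between lncRNA:CR44363 and CG7560 held 6, all of them among the 3922 best in all 3 replicates, with signals from 184.4 to 599.2. A further 6 lay between tRNA:Ile-TAT-1-2 and CG13898, with signals from 145.0 to 475.1. In the order given, these 5 gaps also held 8, 7, 17, 5 and 9 pooled regions that did not pass. Neighbouring sites were not always separate regions: 2 called regions each held 2 member summits, and 56 sites had another passing summit within 500 bp.

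The sites lay at a median of 3372 bp from the nearest TSS, with quartiles of 1347 and 6822 bp and a range from 502 to 43220 bp. Pooled intergenic regions that did not pass lay at a median of 3724 bp. Of regions between 500 and 1000 bp from a TSS, 19.5% passed (exact binomial 95% interval 16.2 to 23.2), and of those over 20000 bp away 10.4% did (6.45 to 15.6). The site lay upstream of its nearest TSS in 408 cases (63.7%), against 59.9% of regions that did not pass. Divergent pairs of coding genes enclosed 203 sites (31.7%), against 27.4% of regions that did not pass.

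The site farthest from a start, 43220 bp, lay between CG10651 and lncRNA:CR40341 with a signal of 144.4 and ranks of 2996, 3392 and 3973. In the gap of 82634 bp between AOX4 and CG43335 lay 2 of the 5 farthest, at 39365 and 34828 bp, with signals of 145.6 and 126.2. Their ranks were 5837, 4367 and 1338, and 21340, 6642 and 1354, so both stood high in replicate 3 alone. A site 36651 bp from CG43245 had a signal of 166.4 and ranks of 2274 and 2784, with no summit within 150 bp in replicate 3. The fifth lay 33870 bp from a start, in the gap with rpr, a gene that triggers cell death, with a signal of 158.3 and ranks of 8033, 4137 and 1612.

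At the other end of the range, the sites nearest to the limit lay 502 bp from nerfin-1 (signal 149.6), 506 bp from lncRNA:CR45277 (136.5) and 507 bp from Dyro (456.6). Just inside it, and so counted as promoter sites, were summits 500 bp from CG17896 (816.6), 497 bp from lncRNA:CR44682 (279.7) and 492 bp from Eip75B (143.0). The lowest signals were 124.9 beside Usp15-31, 125.0 beside CG16964 and 125.1 beside vvl, a POU-domain gene. The final list ended at 124.8.

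Density along the chromosomes was uneven. Arm 3L held 215 sites, or 23.7 per Mb of intergenic sequence outside promoters, 2L held 22.2 per Mb and 3R 17.5 per Mb. Arm 2R held 9.80 per Mb and the X 12.2 per Mb, although the strongest sites included several there. The share of pooled regions that passed was 17.4% on 3L (15.3 to 19.6) and 11.4% on 2R (9.06 to 14.1). In the 3922 best of each replicate, intergenic summits on 3L numbered 23.1, 20.9 and 27.4 per Mb in replicates 1, 2 and 3, and those on 2R 9.94, 9.94 and 14.9, so the arms did not overlap.

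Intergenic regions passed less often than others. Of 18764 pooled regions 3922 passed (20.9%), and of the 4390 intergenic ones 641 did (14.6%, exact binomial 95% interval 13.6 to 15.7), against 22.8% of all other regions (log2 odds ratio -0.79 ± 0.0680 SE, two-sided Fisher's exact test over regions, p = 1.30e-33). Against pooled genic regions, of which 15.1% passed, the difference was -0.474 percentage points (Fisher's exact test, p = 0.474). Promoter regions passed in 38.6% of cases. Here and below, tests and intervals over sites treat each site as 1 count in these 3 libraries, and cover neither replicate error nor the sequencing depth, which is unknown.

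Their signal was lower than that of promoter sites. The median was 191.6 (quartiles 153.0 and 280.9), against 245.8 for promoter sites and 203.8 for genic sites. Of intergenic sites 41.3% lay above the median of the whole final list, 218.4, against 57.4% of promoter sites (log2 odds ratio -0.93 ± 0.134, Fisher's exact test, Benjamini-Hochberg adjusted over 6 comparisons, p = 1.89e-11). Genic sites lay above it in 44.5% of cases, and the difference from intergenic sites did not pass (-3.19 percentage points, Fisher's exact test, adjusted p = 0.217).

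Most intergenic sites also had a summit in each replicate's own list. All passing sites were called on the pool of these same replicates, so this recovery is a description and not independent support. A summit within 150 bp was present in all 3 replicates for 565 of 641 (88.1%, 85.4 to 90.5), where 87.1% of all passing sites were. Of the rest, 69 were in 2 replicates and 7 in 1. The share was 85.9% for promoter sites (log2 odds ratio 0.28 ± 0.201, Fisher's exact test, adjusted p = 0.217) and 88.2% for genic sites (-0.01 ± 0.211, adjusted p = 1.00). With replicate regions at q under 0.05 alone, intergenic sites were below promoter sites by -6.43 percentage points (Fisher's exact test, p = 0.00426, unadjusted). Fewer were among the 3922 best summits of all 3 replicates: 318 intergenic sites (49.6%), where 56.9% of all passing sites were. Promoter sites reached 61.1% (log2 odds ratio -0.67 ± 0.133, Fisher's exact test, adjusted p = 1.45e-06) and genic sites 54.7% (-0.30 ± 0.137, adjusted p = 0.0651). Leaving out replicate 3, which stands apart below, 66.5% of intergenic, 78.8% of promoter and 77.8% of genic sites were among the 3922 best of both others. The difference from genic sites was then -11.3 percentage points (Fisher's exact test, p = 9.51e-08, unadjusted). Without replicate 1 it was 1.24 percentage points (Fisher's exact test, p = 0.625) and without replicate 2 -2.24 (Fisher's exact test, p = 0.362).

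Replicate 3 ordered the sites differently from the other 2 replicates. Among the 3922 best of replicates 1, 2 and 3 stood 73.9%, 83.9% and 77.2% of intergenic sites (78.3% ± 5.10, SD, n = 3) and 81.9%, 94.4% and 74.5% of promoter sites (83.6% ± 10.1). Intergenic sites were thus below promoter sites in replicates 1 and 2 and above them in replicate 3, by -8.00, -10.5 and 2.72 percentage points. The mean difference was within the spread between replicates (-5.26 ± 7.02, exact paired permutation test, two-sided, p = 0.5, the smallest possible being 0.25). The median rank of intergenic sites was 2278, 2596 and 1747, and that of promoter sites 1546, 1571 and 1878. Ranked by replicate 3 alone, 55.1% of intergenic sites lay in the better-ranked 50% of passing sites, against 50.7% of promoter sites (Fisher's exact test, p = 0.0597) and 46.9% of genic sites (p = 6.34e-04). By replicate 1 alone it was 39.0%, against 56.1% of promoter sites (Fisher's exact test, p = 1.13e-13) and 47.2% of genic sites (p = 5.00e-04). By replicate 2 alone it was 36.5%, against 59.5% (Fisher's exact test, p = 8.49e-24) and 44.0% (p = 0.00150).

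**Figure D3:**
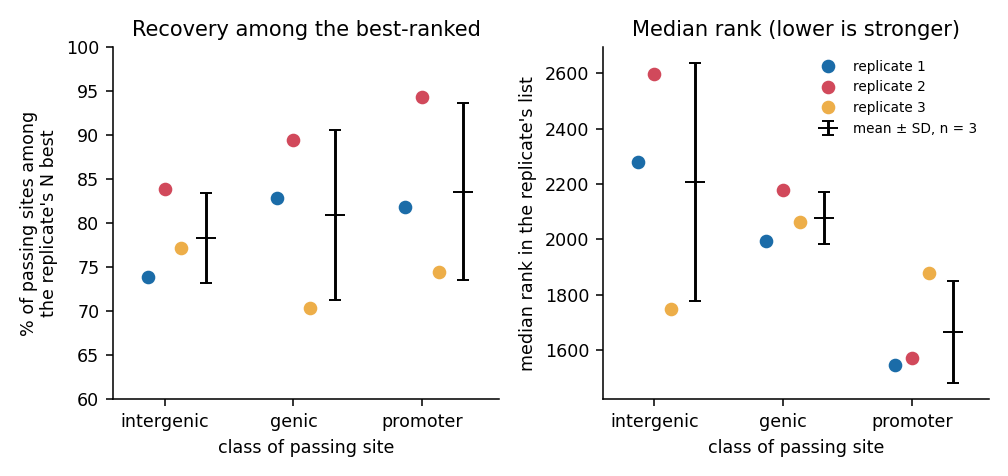
Left, share of passing sites of each class among the 3922 best summits of each replicate; right, median rank of the sites found in each replicate. Points are replicates and bars the mean ± SD over 3; the left axis starts at 60 and the right at about 1500. In replicate 3 intergenic sites have the lowest median rank of the 3 classes (1747), in replicates 1 and 2 the highest.

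The order of intergenic sites was shared by replicates 1 and 2 (Spearman's rho 0.759 over 594 sites found in both) more than by 1 and 3 (0.298 over 570) or 2 and 3 (0.360 over 600). For genic sites the values were 0.806, 0.447 and 0.465, and for promoter sites 0.878, 0.662 and 0.685. Replicate 3 thus agreed least with the others in every class. These are descriptions across sites that share libraries. Of the intergenic sites found in all 3, 63.4% were ranked better in replicate 3 than in the mean of the others, with a median shift of -400 ranks. The share was 34.6% for promoter sites, with a median shift of 249.5 ranks, and 46.6% for genic sites. Intergenic summits outside promoters made up 16.2%, 14.9% and 20.2% of the 3922 best of replicates 1, 2 and 3 (17.1% ± 2.76), or 15.6% on average without replicate 3.

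Ranks are given by distance from a start as a description only, since every site had to pass on a pool that holds all 3 replicates, which ties its ranks to each other. Between 500 and 1000 bp from a TSS, the 103 sites had median ranks of 2035, 2042 and 2155 in replicates 1, 2 and 3. Between 10000 and 20000 bp, the 76 sites had 2418, 2958 and 1426, and over 20000 bp the 20 sites had 2968, 3354 and 1612. Intergenic summits among the 3922 best of each replicate, whether or not they passed in the pool, lay at a median of 3323, 2963 and 3734 bp from a TSS in replicates 1, 2 and 3, and 14.8%, 13.1% and 16.1% of them over 10000 bp.

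**Figure D4:**
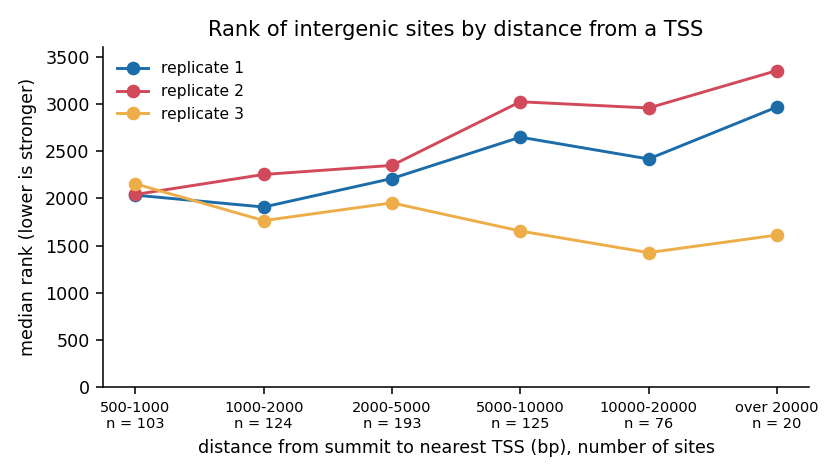
Median rank of intergenic sites in each replicate's list, by distance of the summit from the nearest TSS; lower is stronger and n is the number of sites. The replicates lie together near 2100 in the nearest bin and separate with distance, replicate 3 to 1612 and replicate 2 to 3354 over 20000 bp.

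The 5 sites with the largest difference in favour of replicate 3, between its rank and the mean of replicates 1 and 2, were as follows. The site between kni, a gap gene, and cmpy had a signal of 127.8 and ranks of 29019, 3817 and 2463. The site between Asator and zfh2, a zinc-finger homeodomain gene on chromosome 4, had a signal of 229.9 and ranks of 23654, 3477 and 392. One of 4 sites between rpr and lncRNA:CR46215 had a signal of 139.0 and ranks of 24521, 4371 and 2104, and one between lncRNA:CR45052 and CG42693 a signal of 155.2 and ranks of 17481, 6320 and 739. The nearer AOX4 site, given above, completes the 5. In each of the 5, replicate 1 gave the worst rank of the 3.

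The 5 sites with the largest difference against replicate 3 ranked between 1470 and 4431 in replicates 1 and 2. The site between lncRNA:CR43846 and klg, a cell adhesion gene, had a signal of 129.6 and ranks of 1887, 4431 and 26981. The site between TpnC47D, a troponin C gene, and Cpr47Eg had a signal of 139.7 and ranks of 3166, 3160 and 25864. Between lncRNA:CR44347 and CG42831 the signal was 194.8 and the ranks 1472, 2216 and 22799. The site 848 bp upstream of aop, the Ets-family repressor of Ras signalling, had a signal of 178.0 and ranks of 2262, 1892 and 22694. The site between Cyp4s3 and drd had a signal of 166.4 and ranks of 1470, 2922 and 20141.

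The summits were rich in A and T. Within 50 bp of the summit A+T was 67.6% ± 7.93 (SD over 641 sites). In windows of the same width centred 450 bp to either side, averaged per site, it was 56.2% ± 6.82. The difference was 11.4 ± 10.8 percentage points, and 554 of 641 sites (86.4%) were higher at the summit. Promoter sites differed by 13.4 and genic sites by 11.1 percentage points. Pooled intergenic regions that did not pass differed by 2.06, with 54.3% of them higher at the summit.

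**Figure D5:**
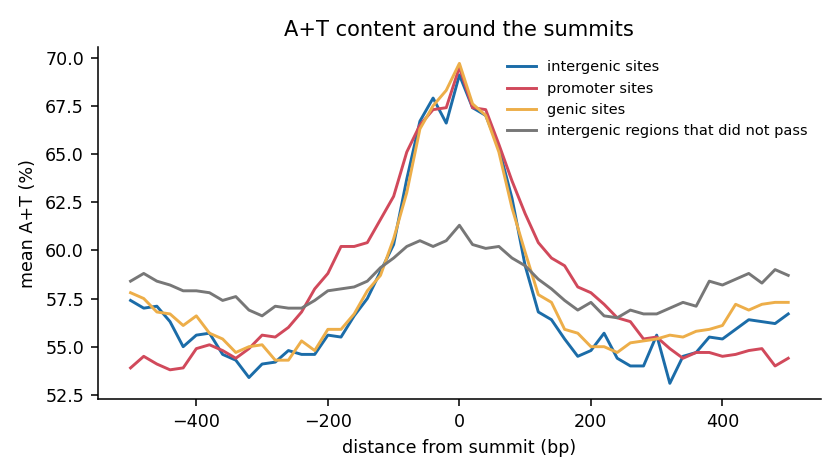
Mean A+T content in windows around the summit, by distance from it, for the 3 classes of passing site and for intergenic regions that did not pass. The passing classes share a peak (69.1% at the summits of intergenic sites) over surroundings near 54 to 57%, while regions that did not pass reach 61.3%. The peak is broader at promoter sites, with 60.2% at -160 bp against 56.6% at intergenic sites. The axis starts above 50%.

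Of 26 motifs, searched as fixed letters on both strands, 4 (15.4%) were present at more summits than flanks and 4 (15.4%) at fewer (exact McNemar test over sites, Benjamini-Hochberg adjusted over 26). The motifs were chosen with earlier results of these data known, so these calls are a description and not independent support. Summits also held more A+T than flanks, which the test does not separate from a motif. Unless stated otherwise, the flank here and below was the window centred 450 bp to the lower-coordinate side. By this exact test, higher at summits were the TATA box TATAAA (22.8% of summits against 10.1% of flanks, adjusted p = 2.38e-08), GATAA of GATA factors (23.1% against 15.8%, adjusted p = 0.00689), ACAAT of Sox factors (32.3% against 24.5%, adjusted p = 0.00938) and TAAACA of forkhead factors (13.3% against 8.42%, adjusted p = 0.0311). By the same exact test, lower were GNCGNC of Mad (6.08% against 21.8%, adjusted p = 2.02e-14), GCCAT of Pho (12.3% against 20.0%, adjusted p = 0.00227), GAGAG of the GAGA factor (8.89% against 13.6%, adjusted p = 0.0311) and TGGGAA of Su(H) (4.68% against 8.42%, adjusted p = 0.0315). The Sox call was lost with windows reaching 100 bp either side (log2 ratio 0.28, exact McNemar test, adjusted p = 0.198) and with the flank on the higher-coordinate side (0.22, adjusted p = 0.373). The GAGA call was lost with the wider windows (-0.36, exact McNemar test, adjusted p = 0.157) and the Su(H) call with the other flank (-0.75, adjusted p = 0.0745).

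The letters of these motifs read backwards, which have the same composition but are not the motif, also passed the exact test in the cases of the TATA box, GATA factors and Sox factors. TATAAA read backwards was at 36.5% of summits and 14.0% of flanks, and GATAA read backwards at 26.4% and 15.8%. ACAAT read backwards was at 26.7% and 17.8%. The backward form of TAAACA did not pass (15.4% against 12.8%, exact McNemar test, adjusted p = 0.285), nor did those of GCCAT (4.84% against 7.49%, adjusted p = 0.120) and TGGGAA (3.43% against 2.81%, adjusted p = 0.795). The log2 ratio of backward GCCAT was -0.66, not far from the -0.83 of GCCAT itself. GNCGNC and GAGAG, also lower at summits, were not searched backwards. None of the 26 motifs, 0%, differed between intergenic and promoter sites in these windows (Fisher's exact test, Benjamini-Hochberg adjusted over 26, smallest adjusted p = 0.0772), and 2 had an unadjusted p under 0.05. This depended on the window: reaching 100 bp either side, 5 motifs were less frequent at intergenic sites. In the narrower windows, the nearest to passing were the DRE, TATCGATA, at 0.312% of intergenic and 1.81% of promoter summits, and CGATA of BEAF-32, at 11.9% and 16.4%. Between intergenic and genic sites none passed either, and 1 had an unadjusted p under 0.05.

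A scan of all 2080 words of 6 letters, added after the motifs were seen, found 257 (12.4%) at more summits than flanks and 395 (19.0%) at fewer (exact McNemar test, adjusted over 2080). The words that were higher held 20.3% G or C on average and the lower ones 69.9%. The smallest p belonged to AATATA, at 27.1% of summits and 7.96% of flanks (exact McNemar test, adjusted p = 5.52e-17). Among words with 1 G or C, ACTAAA (17.3% against 4.84%, exact McNemar test, adjusted p = 1.45e-10), AAACTA (17.8% against 5.46%), AACTAA (16.1% against 4.52%) and TACTAA (9.98% against 1.56%, adjusted p = 7.91e-09) overlap in their letters. Their core, ACTAA, was at 196 summits (30.6%) and at 10.9% and 13.6% of the lower and higher flanks. Read backwards, AATCA was at 30.6% of summits too, but at 22.6% and 23.9% of flanks, so the word and its mirror differed beside the sites and not at them.

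ACTAA was present at 26.7%, 32.5%, 30.6% and 32.5% of summits in 4 equal groups of intergenic sites, from strongest to weakest. The same word was at 24.8% of promoter summits and 13.3% of their lower flanks, at 27.0% and 15.5% for genic sites, and at 17.8% and 17.1% for intergenic regions that did not pass. The difference between classes was not tested, since the word was chosen on the intergenic sites.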

How the data were processed

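Regions called by the authors from ChIP-seq of 3 biological replicates were analysed on dm6, per the file headers and README text deposited with them. Each replicate has a relaxed list, a further list derives from the replicates pooled, and the final list was thresholded by irreproducible discovery rate. The signal of each region is the authors' deposited value, with its normalization not stated; the deposited -log10 q-value was used only for a limit of 0.05. The aligner, peak caller and threshold are not given by any source used here. Read counts were not analysed, so depth is unknown, and lists were compared by rank. The final list was exactly the 3922 strongest pooled regions. The files for dm3 were not used.

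Summits were placed with the Ensembl release 115 annotation (BDGP 6.54), leaving out transposable element genes, and summits within 150 bp counted as shared. Windows of 50 bp either side of a summit were read from the RefSeq assembly. Tests were Fisher's exact, exact McNemar and exact permutation tests (Python 3.11.15, scipy 1.17.1). The Fisher and McNemar tests were checked on simulated windows. Those had equal base composition at summits and flanks, unlike these data, so the check does not cover calls that follow base composition. Odds ratios are of counts with intervals from counting error only. The members, gene lists and motifs were chosen with earlier results of these data known. Named were the 15 strongest sites found in all 3 replicates, the 5 farthest from a TSS, the 5 with the largest and the 5 with the smallest difference between the rank in replicate 3 and the mean of replicates 1 and 2, up to 2 per gene list, the 5 fullest gaps, the 3 weakest, and 3 on each side of the 500 bp limit. The list names h, isl, Dl, Act and Hr46 matched no gene, and counts with hry for h and Delta for Dl were added after the data were seen.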

Additional observations from a re-analysis of the deposited data

How the results depend on the processing

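No paired analysis was possible because there is 1 group, so no replicate number pairs samples between groups. Counting only protein-coding genes gave 777 sites, counting transposable element genes 627, a limit of 250 bp 831 and of 1000 bp 538; the 641 sites were all within the 777 and the 831. The lower passing share of intergenic regions and the lower signal than promoter sites kept their direction under these limits. Ranked by replicate 3 alone, the signal difference turned to 4.36 percentage points above promoter sites and 8.2 above genic sites. Against genic sites it passed with the mean rank of all replicates (-5.34), replicate 1 (-8.21), replicate 2 (-7.47) and without replicate 3 (-9.66). The share found in all 3 replicates, above promoter sites by 2.26 points, turned to -1.6 with summits shared within 50 bp, -0.22 among sites above the median signal and -6.43 with replicate regions at q under 0.05. The share among the best of each replicate, against genic sites, ran from -7.26 to 0.64 when 1 replicate was left out, and against promoter sites from -9.24 to -2.64. The share among the best of all replicates ran from -12.4 to -6.95 points against promoter sites and from -11.3 to 1.24 against genic sites, an alternative chosen after seeing the data. Among sites above the median signal 1 motif was higher and 1 lower at summits, and with windows reaching 100 bp either side 5 motifs were less frequent than at promoter sites. The sites above the median were fewer, 265 of 641, and the cause of these changes was not tested. Depth is unknown, so no limit from it can be given.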
